A study of Rattus norvegicus with 14 samples.

Results

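The 7 genes followed here are known from blood vessel endothelium, and were measured in the fetal rat gonad: Pecam1, Kdr, Flt1, Vwf, Eng, Ednrb and Nos3. They were chosen by name, and all probe sets whose platform annotation gave 1 of these symbols were taken, a probe set being a group of short probes for 1 transcript. This gave 8 probe sets of 15866, for 6 of the 7 genes (of 10411 genes with a symbol in all): 3 for Flt1 and 1 each for Pecam1, Kdr, Vwf, Eng and Nos3. Ednrb, the endothelin B receptor, had no probe set of that name and is not analysed here.

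RNA was measured on 14 single-channel Affymetrix arrays, 2 per group, each from its own pool of 20 to 40 gonads. The 7 groups were fresh rat testis and fresh rat ovary at embryonic days 13, 14 and 16 (E13, E14, E16), and E13 testis kept for 3 days in organ culture. The cultured testes lay on filters over CMRL medium with insulin, transferrin, albumin, L-glutamine, penicillin and streptomycin; no other agent is named, and the strain is not given in the sources used here. Whole gonads were pooled, so a lower signal cannot be told apart as fewer endothelial cells or as less RNA per cell.

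Endothelial cells line blood vessels and form early in the embryo under vascular endothelial growth factor (VEGF), which they sense through the receptor tyrosine kinases Kdr and Flt1. In rodents the fetal testis is known for a distinctive vasculature, with endothelial cells that enter from the neighbouring mesonephros and a large vessel below the surface epithelium, while vessels in the ovary are remodelled less abruptly. Pecam1 is an adhesion molecule at endothelial junctions, Vwf the clotting protein stored in endothelial cells and platelets, Eng a co-receptor of the TGF-beta family, and Nos3 the endothelial nitric oxide synthase.

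The sequence before the start of each gene was looked up by symbol in RefSeq (build GRCr8), which gave 5 of the 7 genes. The stretches of 250 bases upstream of Kdr and Flt1 are shown because these paralogous receptors share a ligand but had unlike signals across the arrays. Capitals mark AGGAAG or CGGAAG on either strand, longer forms around GGAA, the core letters of sites for ETS family factors, a family with many roles in endothelial genes. Kdr lies at chr14:32571813-32572062 and Flt1 at chr12:12333180-12333429, both on the plus strand and 5′ to 3′.
Kdr: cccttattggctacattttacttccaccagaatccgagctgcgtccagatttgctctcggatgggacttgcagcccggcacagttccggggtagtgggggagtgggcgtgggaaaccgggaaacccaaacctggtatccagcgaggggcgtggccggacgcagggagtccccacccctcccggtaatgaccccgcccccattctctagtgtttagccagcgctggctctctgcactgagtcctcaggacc
Flt1: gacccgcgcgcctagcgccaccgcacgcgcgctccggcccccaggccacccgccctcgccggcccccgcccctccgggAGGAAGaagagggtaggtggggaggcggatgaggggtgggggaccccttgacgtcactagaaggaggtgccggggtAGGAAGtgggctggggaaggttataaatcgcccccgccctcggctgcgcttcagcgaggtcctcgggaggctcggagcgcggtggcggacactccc
The short core GGAA itself occurred on either strand 4 times in the Kdr stretch and 3 times in the Flt1 stretch; all 5 genes held it, as did 93.2% of 33469 RefSeq stretches of that length. Of the longer forms Kdr held 0 and Flt1 2, beginning 172 and 96 bases before the start. Eng held 2, Nos3 1 and Ednrb 0, so that 3 of 5 genes had one, against 39.4% of all stretches. The letters GGGCGG, read by Sp1-type factors, occurred on either strand in Kdr, Flt1 and Nos3, against 30.5% of all stretches. G and C made up 61.6% of the Kdr stretch and 73.2% of the Flt1 stretch, against a median of 51.2%. The arrays measured transcripts only, so these are descriptions of sequence.

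Some facts of the arrays touch every value. Array medians lay between 59.6 and 69.2 intensity units, and each group has n = 2, which limits all precision. Amh, the Sertoli cell hormone, read at least 63.9 in every testis array and at most 38.5 in every ovary array. Xist, the RNA of the inactive X chromosome, went against the label in 4 arrays: E13 testis, E14 testis and cultured testis replicates 1 read 36.2, 269.2 and 151.1, and E16 ovary replicate 2 read 12.8. Actin probes near the 3′ end outshone those near the 5′ end 3.34-fold in 1 E16 ovary array (replicate 1) and 2.97-fold in 1 cultured array (replicate 2), a sign of RNA quality that lay between 1.47 and 2.13 in the other arrays. Array labels point to 8 chip batches in 3 chip periods, read from the form of the chip names and not known to match hybridisation batches. Values without these arrays are given where they matter.

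Over the 13 comparisons that the groups allow, none of the 6 genes passed limma's test, at an adjusted p under 0.05 over all 15866 probe sets. The 78 tests gave a lowest adjusted p of 0.151, for Kdr over the ages, and 9 had an unadjusted p under 0.05. Log2 differences, taken on log2(intensity + 16) here and below, ran from -0.82 to 1.13. The 2 dimmer Flt1 probe sets did not pass either. The results that follow are therefore levels and intervals, and a p above the threshold does not show that groups were alike.

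Kdr, the main signalling receptor for VEGF, was the only one of the 6 genes that exceeded the array median in all 14 arrays. In fresh testis it read 250.1 and 190 at E13, 173.4 and 171.1 at E14, and 196.4 and 177.3 at E16. In ovary it read 280.2 and 229.9 at E13, 362.1 and 166 at E14, and 299.9 and 367.3 at E16. The cultured testes read 141.7 and 138.6, below every other array. In order of group means, E16 ovary (333.6) stood first, then E14 ovary (264), E13 ovary (255), E13 testis (220), E16 testis (186.9), E14 testis (172.2) and cultured testis (140.1). Neighbours in this order overlapped in their arrays, except E16 testis over E14 testis and E14 testis over cultured testis.

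**Figure D1:**
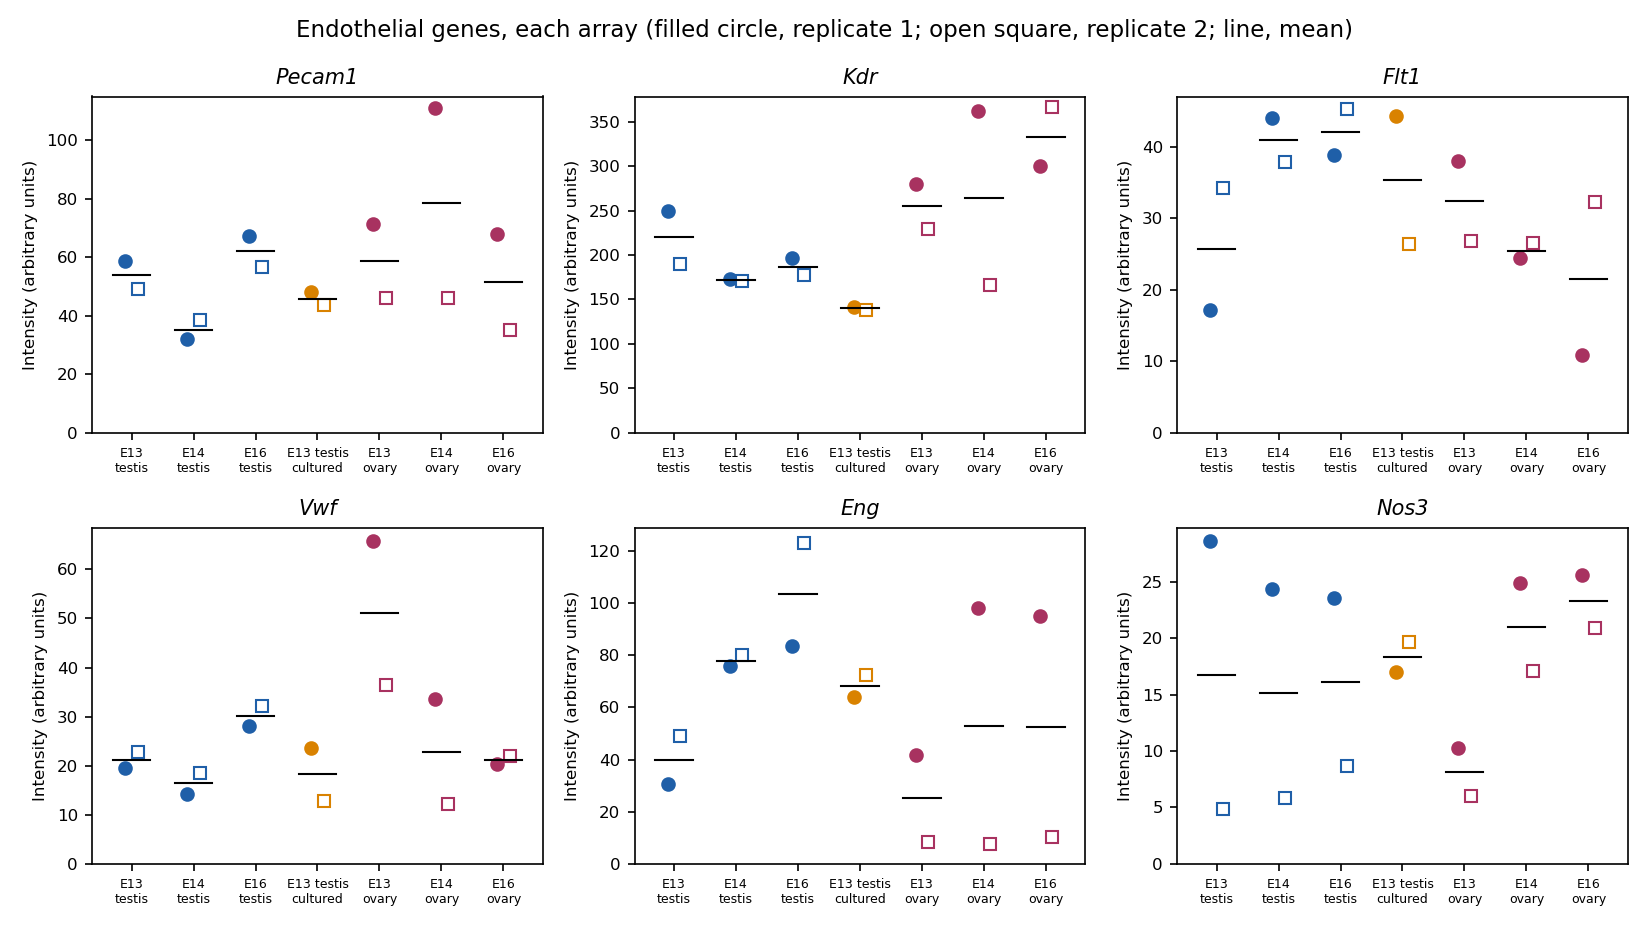
Intensity of each endothelial gene (y axis, arbitrary units from 0, brightest probe set) in the 7 groups (x axis); filled circles are replicate 1, open squares replicate 2, lines the mean of the 2 arrays; testis is blue, cultured testis orange and ovary red. Kdr lies lowest in the cultured testes (141.7 and 138.6) and highest in E14 ovary replicate 1 and E16 ovary replicate 2, and Eng splits the 2 ovary arrays at each age.

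Pecam1 was dimmer and had no steady order between the sexes. Its testis arrays read 58.6 and 49.1 at E13, 32 and 38.4 at E14, and 67.4 and 56.5 at E16. Its ovary arrays read 71.4 and 45.9 at E13, 111 and 46.1 at E14, and 68 and 35.1 at E16, with cultured testis at 48 and 43.6. Testis replicates stayed within 1.2-fold of each other, while ovary replicates differed 1.56-fold to 2.41-fold. At E14 both testis arrays lay below both ovary arrays, and at E13 and E16 the sexes overlapped.

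Vwf was above the array median in 1 array alone, E13 ovary replicate 1 at 65.8; its replicate read 36.5. E14 ovary read 33.5 and 12.2, and E16 ovary 20.4 and 21.9. In testis the arrays read 19.6 and 22.7 at E13, 14.2 and 18.6 at E14, 28 and 32.1 at E16, and 23.7 and 12.7 after culture. Both E13 ovary arrays thus exceeded all arrays of the other groups.

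Eng, the TGF-beta family co-receptor, had the widest spread of the 6 genes. In testis it read 30.7 and 49.2 at E13, 75.9 and 79.9 at E14, 83.5 and 123.1 at E16, and 63.9 and 72.3 after culture. In ovary the replicates split: 41.9 and 8.5 at E13, 98.1 and 7.6 at E14, and 94.9 and 10.3 at E16. Replicate 1 lay within or above the range of the testis arrays of its age, whereas replicate 2 lay under all of them. Its residual SD between replicates, 0.907 on the log2 scale, exceeded that of 99.7% of all probe sets.

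Flt1, a VEGF receptor that also acts as a decoy for the ligand, and Nos3 did not exceed the array median in any array. The brightest Flt1 probe set read 17.2 and 34.2 in E13 testis, 44 and 37.9 in E14 testis, 38.8 and 45.3 in E16 testis, and 44.3 and 26.4 after culture. In ovary it read 38 and 26.8, 24.4 and 26.5, and 10.9 and 32.2 at the 3 ages. Testis lay above ovary without overlap at E14 and at E16, but not at E13. The other probe sets of Flt1 had mean intensities of 24.1 and 12.3 and gave log2 -0.03 and 0.27 at E14 where the brightest gave 0.46, with overlap between the sexes. At E13 the first of them read 27.4 and 37.8 in testis and 15 and 20.3 in ovary, without overlap (log2 0.53), opposite in sign to the brightest (-0.24).

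Nos3 read 28.6, 24.4 and 23.6 in replicates 1 of E13, E14 and E16 testis, and 4.9, 5.8 and 8.7 in replicates 2. Cultured testis read 17 and 19.7. Ovary read 10.3 and 6 at E13, 24.9 and 17.1 at E14, and 25.6 and 20.9 at E16. In fresh testis and in ovary, replicate 1 exceeded replicate 2 at every age.

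Testis and ovary were compared at each age to ask whether the vessel genes differ while the gonads take their sex. At E13, 0 of 6 genes passed against 0.0126% of all probe sets; 1 of the 6 and 1236 of all had an unadjusted p under 0.05. Vwf gave the largest difference, 21.2 ± 2.19 (SD) in testis against 51.2 ± 20.7 in ovary (log2 -0.82, 95% confidence interval -1.44 to -0.20, adjusted p = 0.541). Without ovary replicate 1 it was -0.50 and without ovary replicate 2 -1.14. The other 5 ranged from log2 -0.24 for Flt1 to 0.55 for Eng. Platelets are another source of Vwf, and 3 of 5 listed platelet genes were measured. Their summed signal was 168.5 and 194.6 in testis and 170.6 and 195.5 in ovary. The part of platelets in the Vwf difference was not tested.

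At E14, 0 of 6 genes passed, against 0.139% of all probe sets; 1 of the 6 and 1270 of all had an unadjusted p under 0.05. Pecam1 averaged 35.2 ± 4.53 in the testis arrays against 78.6 ± 45.9 in the ovary arrays (log2 -0.80, interval -1.52 to -0.08, adjusted p = 0.592). It was -0.28 without ovary replicate 1 and -1.31 without ovary replicate 2. Within the chip batch that held 1 array of each sex, Pecam1 read 38.4 in testis against 46.1 in ovary, and Kdr 171.1 against 166. In the same 2 arrays Eng read 79.9 against 7.6, Flt1 37.9 against 26.5, Vwf 18.6 against 12.2 and Nos3 5.8 against 17.1. Kdr over both replicates gave log2 -0.48 (interval -1.11 to 0.16). Eng gave log2 0.86 with an interval from -0.75 to 2.46.

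At E16, 0 of 6 passed, against 1.74% of all probe sets; 2 of the 6 (Kdr and Flt1) and 2062 of all had an unadjusted p under 0.05. Kdr stood at 186.9 ± 13.5 in testis and 333.6 ± 47.7 in ovary, with no overlap between arrays (log2 -0.78, interval -1.41 to -0.15, adjusted p = 0.267). The array pair within 1 chip batch gave 177.3 against 367.3. Without E16 ovary replicate 2 and the 3 other arrays with discordant Xist, Kdr gave log2 -0.64 (adjusted p = 0.521). Flt1 leaned the other way, at 42.1 ± 4.6 in testis against 21.6 ± 15.1 in ovary (log2 0.69, interval 0.04 to 1.33, adjusted p = 0.351). The ovary mean rests on arrays at 10.9 and 32.2: without the first the difference was 0.27, without the second 1.11, and the dimmer Flt1 probe sets gave -0.06 and 0.40. Genes of other cells stood apart in the same arrays: 5 genes of Leydig cells, the androgen makers, summed to 4002 and 7844 in testis and 154.3 and 74.7 in ovary, and 7 pericyte genes to 557.7 and 570.1 against 392.2 and 383.5. Their part in these differences was not tested. Eng stood at 103.3 ± 28 against 52.6 ± 59.8 (log2 1.12, interval -0.49 to 2.73), and its difference was 0.09 without the 4 arrays with discordant Xist and 2.16 without the 2 arrays with a high actin ratio.

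Over the 3 ages together, 0 of 6 passed, against 2.31% of all probe sets; 1 of the 6 (Kdr) and 3177 of all had an unadjusted p under 0.05. Kdr gave log2 -0.49 (interval -0.85 to -0.12, adjusted p = 0.151). This call turned on 1 array: without E14 ovary replicate 2, whose Kdr signal was the lowest of the 6 ovary arrays, Kdr passed at log2 -0.66 (adjusted p = 0.0173). With chip period as a block it gave log2 -0.32 (adjusted p = 0.534). Eng gave 0.84 (interval -0.09 to 1.77), and the other 4 genes lay between -0.24 and 0.30. The median over the 6 genes was -0.15, against 0.05 over all probe sets.

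Whether the sex difference itself changed from E13 to E16 was tested as well, and 0 of 6 genes passed, against 0.145% of all probe sets; 2 of the 6 (Vwf and Flt1) and 1030 of all had an unadjusted p under 0.05. Vwf shifted towards testis by log2 1.13 (interval 0.25 to 2.01, adjusted p = 0.579) and Flt1 by 0.92 (interval 0.01 to 1.84). For Kdr the shift was -0.58 (interval -1.47 to 0.32).

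**Figure D2:**
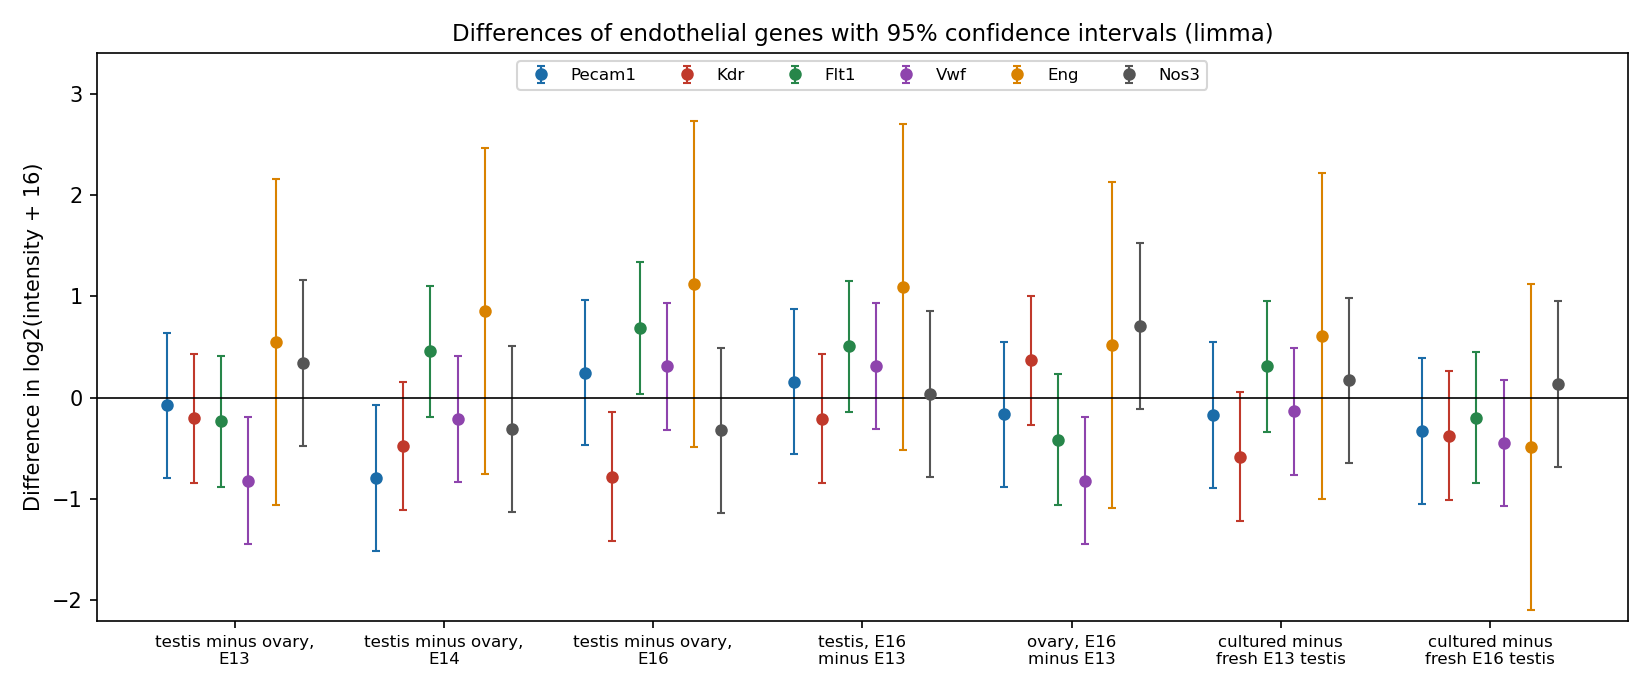
Difference in log2(intensity + 16) (y axis) of 6 endothelial genes in 7 of the comparisons (x axis); points are limma estimates and bars their 95% confidence intervals. Most intervals span 0, those of Eng are the widest, and the interval of Kdr at E16 lies below 0 (-1.41 to -0.15) without passing after adjustment.

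The steps between ages ask how these signals move as each gonad grows. In testis, 0 of 6 genes passed from E13 to E14 (0.0693% of all probe sets), from E14 to E16 (0.12%) or from E13 to E16 (0.945%), and 0 of 6 had an unadjusted p under 0.05 in any of the 3, against 1141, 818 and 1704 probe sets in all. Over the whole span Eng gave the largest difference, from 40 ± 13.1 to 103.3 ± 28 (log2 1.09, interval -0.52 to 2.70, adjusted p = 0.668), with no overlap between arrays. Vwf gave log2 0.31 and Kdr -0.21. For Pecam1 the step from E14 to E16, log2 0.61, had an interval of -0.11 to 1.33. All 6 point estimates of that step lay above 0, while 47.8% of all probe sets lay below 0. Their median was log2 0.216, against 0.011 over all probe sets. From E13 to E16, 5 of the 6 lay above 0, while 53% of all probe sets lay below it. Of 44 measured genes of a wider endothelial list described below, 25 and 23 lay above 0 in these 2 comparisons. The 6 genes rest on the same arrays.

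In ovary, 0 of 6 passed from E13 to E14 or from E14 to E16, where limma called 0 of all probe sets (0%; 679 and 975 at an unadjusted p under 0.05, among them 1 and 0 of the 6). From E13 to E16 the count was also 0 of 6, against 0.889% of all probe sets; 1 of the 6 (Vwf) and 1691 of all had an unadjusted p under 0.05. Vwf stood at 51.2 ± 20.7 at E13 and 21.2 ± 1.06 at E16 (log2 -0.82, interval -1.44 to -0.20, adjusted p = 0.289), and the difference was -0.50 without E13 ovary replicate 1. Nos3 stood at 8.15 ± 3.04 and 23.3 ± 3.32 (log2 0.70, interval -0.11 to 1.52), and Kdr gave 0.37 (interval -0.27 to 1.00). Testis and ovary steps have no arrays in common.

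Cultured testis was set against fresh E13 testis, from which it started, and against E16 testis, its counterpart in age. Against E13 testis, 0 of 6 genes passed, compared with 1.39% of all probe sets, and 0 of 6 against 1958 of all had an unadjusted p under 0.05. Kdr stood at 140.1 ± 2.19 after culture and 220 ± 42.5 before it, with no overlap (log2 -0.58, interval -1.22 to 0.05, adjusted p = 0.452). Both cultured arrays and E13 testis replicate 1 (Kdr 250.1) are among the arrays with a discordant Xist or a high actin ratio. Over the 25 alternative fits the Kdr difference ran from log2 -0.769 to -0.4. Eng was at 68.1 ± 5.94 against 40 ± 13.1 (log2 0.61, SE 0.73), and Pecam1 at 45.8 ± 3.11 against 53.9 ± 6.72.

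Against E16 testis, 0 of 6 passed, compared with 0.0945% of all probe sets, and 0 of 6 against 1059 of all had an unadjusted p under 0.05. In all, 5 of the 6 point estimates lay below 0, as did 46.8% of all probe sets. Their median was log2 -0.35, against 0.02 over all probe sets, and all 6 rest on the same arrays. Of 44 measured genes of a wider endothelial list described below, 20 lay below 0 and 24 above, with a median of 0.024. Kdr gave -0.38 (interval -1.01 to 0.26), and in the 2 chip batches that held both groups it read 138.6 against 177.3 and 141.7 against 196.4. Vwf gave -0.45 (interval -1.07 to 0.18), and Nos3 alone lay above 0, at 0.13. Both culture comparisons share their cultured arrays.

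Markers of other cells moved with culture and are given beside it. Leydig cell genes summed to 3324 and 4380 after culture and 173.9 and 124.8 before it. All 5 lay above 0, and 4 passed (Cyp11a1, Cyp17a1, Hsd3b1 and Star, genes of steroid synthesis). Sertoli cell genes summed to 2503 and 3200 against 518 and 404.8, and all 3 rose (Amh, Inha and Aard). The summed signal of 6 measured red blood cell genes of 9 listed was 9236 and 1102 in the cultured arrays, against 6542 and 8439 in fresh E13 testis and 10760 and 12770 in E16 testis. Of the 6, 2 lay above 0 and 4 below: Slc4a1, the red cell anion exchanger, fell from 123.4 and 107.6 to 61.9 and 43.1 by its brighter probe set (log2 -0.95, limma adjusted p = 0.0295) but read 38.7 and 17.5 against 37.8 and 24.7 by the other, and Alas2, the first enzyme of heme synthesis in red cells, read 179.1 and 145.8 against 81.4 and 94. The beta globin gene Hbb read 2420.5 in cultured replicate 1 and 13 in replicate 2. The 5 macrophage genes of 8 listed summed to 344.4 and 305.8 after culture and to 189.9 and 218.1 before it. Among 4 mesonephros genes of 5 listed, Wt1, which Sertoli and surface cells of the gonad carry too, read 526.9 and 377.2 after culture and 838.7 and 863.2 before it, and Cdh1 read 55.8 and 12.6 against 44.7 and 17; none of the 4 passed. The 3 platelet genes, of 5 listed, summed to 138.6 and 129.1 after culture and 168.5 and 194.6 before. None of these genes was listed at 0 in any array, and their part in the values of the endothelial genes was not tested.

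A wider list of 55 endothelial genes held 44 with a probe set, each represented by its brightest one. Of the 10 genes named as defining markers of the cell type, 7 were measured: Emcn, Cldn5, Egfl7 and Plvap read up to 315.7, 261.1, 164.6 and 244.6, and Esam, Icam2 and Tie1 up to 188, 81.9 and 78.7; Cdh5, Tek and Robo4 had no probe set of that name. In 8 of 13 comparisons 0 of the 44 passed. The others were 2 in testis against ovary at E16 (1.74% of all probe sets passed) and 2 over the ages (2.31%), 1 in testis (0.945%) and 1 in ovary (0.889%) from E13 to E16, and 2 after culture (1.39%), each of them made by cells other than endothelium too. With the 2 lists of signals and pericytes described further on, 14 calls were made by brightest probe sets, and all 14 ended without the 4 arrays with discordant Xist (adjusted p from 0.0546 to 0.27), where fewer arrays were fitted and the log2 differences were 0.735 to 1.37 times those over all arrays. The 11 of them that compare 2 groups also ended when only those groups were fitted (0.0664 to 0.272), with the same log2 differences.

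Podxl, a sialomucin of endothelium that podocytes, germ cells and surface epithelia carry as well, was lower in testis than in ovary at E16. Its arrays read 204.2 and 216.9 in E16 testis and 718.2 and 918.5 in E16 ovary (log2 -1.87, interval -2.37 to -1.37, adjusted p = 0.00299 by limma). It was lower over the 3 ages too (log2 -0.97, adjusted p = 0.00419). Both calls rest on 1 probe set: the other probe sets of the gene read 50.9 ± 3.82 and 18.95 ± 1.91 in E16 testis against 43.35 ± 2.9 and 17.6 ± 4.38 in E16 ovary. Procr, the protein C receptor, was lower in E16 testis, at 67.5 and 75.9 against 159.5 and 273.2 (log2 -1.36, adjusted p = 0.0382). Nrp2, a VEGF co-receptor, was higher in testis over the ages (27.2 ± 7.83 against 10.8 ± 4, log2 0.68, adjusted p = 0.0264), at low signals.
As the mean over its probe sets, Podxl gave log2 -0.55 at E16 (adjusted p = 0.119) and -0.23 over the ages (adjusted p = 0.173), while every fit that left out 1 array kept both calls. Procr no longer passed without any single array of E16 testis, E13 testis or E13 ovary or without E16 ovary replicate 2 (adjusted p from 0.059 to 0.198). Blocking on chip period ended the Nrp2 call (adjusted p = 0.2), and so did leaving out E13 testis replicate 2, E16 ovary replicate 1, or any single array of E14 testis, E16 testis or E13 ovary (adjusted p from 0.0585 to 0.0999).

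Cav1, the coat protein of caveolae in endothelium and smooth muscle, rose in both sexes from E13 to E16. Testis arrays went from 90.1 and 100 to 202.7 and 255.6 (log2 1.14, limma adjusted p = 0.0221) and ovary arrays from 105.1 and 95.4 to 220.9 and 227.8 (log2 1.05, adjusted p = 0.0365). In the same testis comparison all 5 Leydig and all 3 Sertoli cell genes rose, with median log2 differences of 4.49 and 2.49; their part in the testis differences of Cav1, Eng and Gucy1b1 was not tested. Leaving out any 1 of the 4 arrays compared ended the testis call (adjusted p from 0.053 to 0.217), and the ovary call ended without any single array of E13 or E14 testis or of E13 or E16 ovary (adjusted p from 0.0549 to 0.293).

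Vcam1, an adhesion molecule of activated endothelium that stromal cells also express, was higher in cultured than in fresh E13 testis. It read 184.2 and 149.4 after culture, against 37.1 and 19.8 before it (log2 2.06, interval 1.57 to 2.55, adjusted p = 0.00128). With either chip block and in every fit without 1 array the call stood; without the 4 arrays with discordant Xist it gave log2 2.21 (adjusted p = 0.0761). Podxl was lower after culture, at 200 and 162.7 against 358.8 and 576.4 (log2 -1.26, adjusted p = 0.0236), a call lost without E13 testis replicate 2 (adjusted p = 0.126) and without cultured replicate 1 or 2 (0.0506 and 0.178). Against E16 testis no gene of the list passed.

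**Figure D3:**
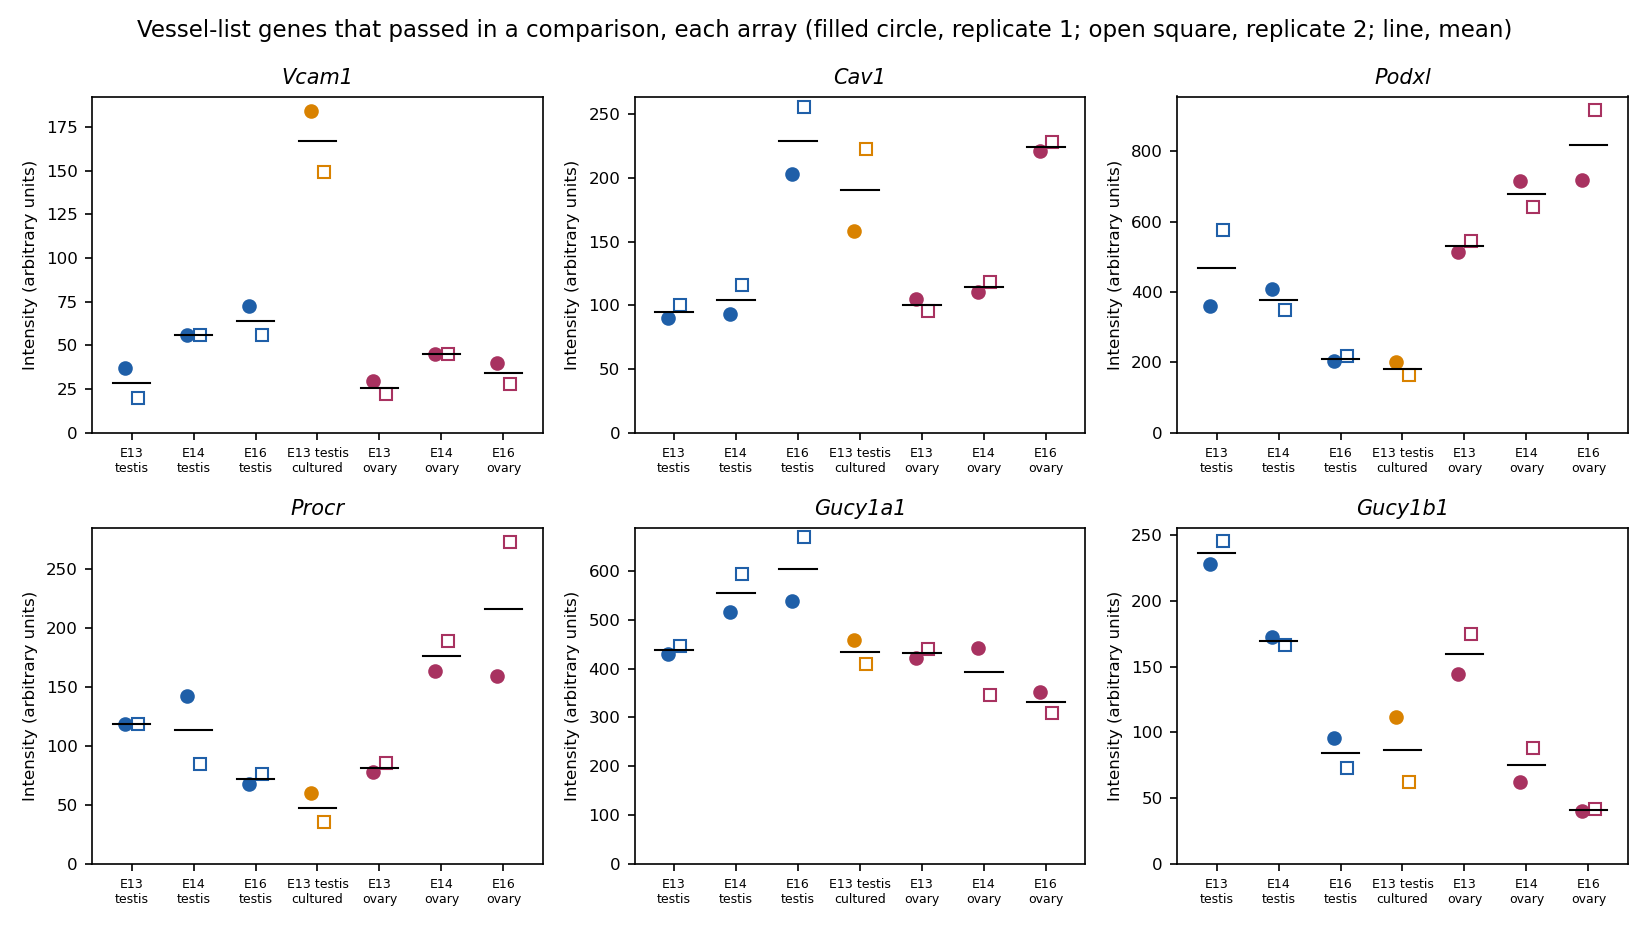
Intensity (y axis, arbitrary units from 0, brightest probe set) of 6 vessel-related genes in the 7 groups (x axis); filled circles are replicate 1, open squares replicate 2, lines the mean of the 2 arrays. Vcam1 is highest in the cultured testes (184.2 and 149.4), Cav1 is high in both sexes at E16, Podxl parts testis from ovary at E16, and Gucy1b1 is lower at E16 than at E13 in both sexes.

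Among 20 measured of 29 listed signals that act on vessels, 2 passed in some comparison by their brightest probe set. They are the subunits of soluble guanylate cyclase, the enzyme that senses nitric oxide made by synthases such as Nos3, mostly in smooth muscle and pericytes. The count was 1 of 20 in testis against ovary at E16 (1.74% of all probe sets passed) and over the ages (2.31%). It was also 1 from E13 to E16 in testis (0.945%) and in ovary (0.889%) and after culture (1.39%), and 0 in the other comparisons. Gucy1b1 fell from 227.8 and 245.5 to 96.1 and 73.1 between E13 and E16 testis (log2 -1.34, limma adjusted p = 0.0279), and from 144.5 and 174.8 to 40.3 and 41.8 in ovary (log2 -1.62, adjusted p = 0.0133). It was lower in cultured than in fresh E13 testis too, at 111.8 and 62 (log2 -1.34, adjusted p = 0.0236), and higher in testis than in ovary over the ages (log2 0.79, adjusted p = 0.0147). Its second probe set passed in these 4 comparisons in the same direction, and in E16 testis over ovary as well (log2 1.05, adjusted p = 0.0449).
Gucy1a1 was higher in testis at E16, at 538.3 and 670.7 against 352.7 and 309 (log2 0.83, adjusted p = 0.0484), and this call held in 8 of 25 alternative fits. Leaving out 1 array ended the Gucy1b1 call in testis for every array of E13 or E16 testis and of E13 ovary (adjusted p from 0.0505 to 0.241) and in ovary for every array of E13 or E16 ovary (0.0601 to 0.168). It also ended the culture call for either E13 testis array or cultured replicate 2 (0.0991 to 0.171) and the call over the ages for E14 testis replicate 2 or E13 ovary replicate 1 (0.0501 and 0.0585), and blocking on chip period ended the latter too (0.102).

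Vegfa, the ligand of Kdr and Flt1, stood at 152.7 and 97.6 in E13 testis and 92.7 and 69.9 in E16 testis by its brightest probe set, which did not pass (log2 -0.52, adjusted p = 0.583). A dimmer probe set of the gene did, from 75.3 ± 4.38 to 23.7 ± 14.4 (log2 -1.25, adjusted p = 0.0357). In ovary the brightest probe set read 151 and 165.4 at E13 and 93.4 and 55.8 at E16 (log2 -0.97, adjusted p = 0.187). Dimmer probe sets of Pgf, another VEGF family ligand (log2 1.39 after culture, adjusted p = 0.0319), and of the arterial gap junction gene Gja5 (log2 1.17 in E16 testis over ovary, adjusted p = 0.0135) passed while the brightest ones gave 0.58 and 0.46 and did not. Of 7 pericyte genes, Pdgfrb alone passed by its brightest probe set, in testis against ovary at E16, where 1.74% of all probe sets passed. It was higher in E16 testis, at 102.1 and 96.6 against 45 and 26.6 (log2 1.18, limma adjusted p = 0.0294). This call ended without any single array of E14 testis, E16 testis or E13 ovary, or without E16 ovary replicate 2. Over the 25 alternative fits the log2 difference ran from 0.717 to 1.493.

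The 6 genes did not follow one another closely. Over the 14 arrays, Pearson's r between pairs of them ran from -0.461 (Kdr with Flt1) to 0.546 (Pecam1 with Vwf), with a median of 0.167 over 15 pairs. The genes most like each member over the 14 arrays were sought among about 5333 probe sets with a mean intensity of at least 100. Only the top 3 per member were kept, and none of them was on the endothelial list. The search cannot show whether the members followed that list, because so few genes were kept and the filter left out its dimmer genes. Tie1 and Icam2, for example, read under 100 in every array. Kdr ran closest to Ptgfrn (r = 0.908), Entrep3 (0.902) and Eif3d (0.892). Pecam1 ran closest to Srebf2 (0.851), Retsat (0.831) and Actr8 (0.822), and Flt1 to Pttg1 (0.879), Pmp22 (0.843) and Rad21 (0.835). Eng ran closest to the collagen gene Col1a2 (0.856), Tspan9 (0.842) and Synpo (0.835). Vwf ran closest to Epb41l2 (0.798), Ube2k (0.755) and Gas6 (0.755), and Nos3 to Ndrg1 (0.788), Ubqln1 (0.767) and Tm9sf2 (0.748). These are descriptions: arrays of a group, sex and chip period share much beyond these genes.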

How the data were processed

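The authors deposited 1 value per probe set and array, an intensity on a linear scale; the software that made it is not given in the sources used here. Each array had been scaled: the mean after trimming 2% at each end was 125 in all 14. Per the labels' protocols, RNA was extracted with Trizol from 2 independent pools per group. Affymetrix control probe sets (57 of 15923) did not enter any test. The platform annotation gave 1 symbol to 12783 of the rest, several to 312 and none to 2771; only the first were named, each gene by its brightest probe set.

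Values were taken as log2(intensity + 16), which understates changes of dim genes, and fitted with 7 groups by limma 3.58.1 in R 4.3.3 (7 residual and 4.16 prior degrees of freedom). P-values were adjusted by Benjamini-Hochberg over all probe sets; intervals are 95%. The script was tested on simulated data. Members and lists were chosen with earlier results of these data known. All members were named, with list genes that passed (up to 5 per list and comparison) and the 3 genes most like each member; genes read from a dimmer probe set were added after their values were seen. Promoters came from RefSeq GRCr8. Alternatives were other offsets, quantile normalization, a filter at a mean of 50, chip blocks, fewer groups or arrays, and probe set means.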

Additional observations from a re-analysis of the deposited data

How the results depend on the processing

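In 12 of the 13 comparisons, 0 of the 6 genes passed in each of the 25 alternative fits, 1 of which (without the 2 arrays with a high actin ratio) was chosen after seeing the data. In the mean over the ages the count ran from 0 to 1 when single arrays were left out; the 1 was Kdr without E14 ovary replicate 2. Labels do not say that replicate numbers pair pools: the differences between replicates correlated across groups at r = -0.0534 to 0.53, over 0.1 in 15 of 21 group pairs, and with a replicate block the count of genes passing was 0 in all 13 comparisons. Signs of values that did not pass turned in 20 of 312 alternative values for Nos3, 19 of 312 for Flt1, 14 of 325 each for Eng and Pecam1, 8 of 312 for Vwf and 7 of 325 for Kdr. In size, 75 of the 78 differences moved by over 1.5 times in at least 1 alternative: 63 with another offset, 62 without 1 array, 51 with a chip block and 13 with quantile normalization. Vwf at E13, for one, ran from -1.18 to -0.42 and Flt1 at E16 from 0.27 to 1.11. The filter at 50 leaves out Flt1, Vwf and Nos3. In all, 5 of the 6 genes lay under the array median in at least 7 arrays, where signal over background limits what can be seen. Quantile normalization moved no comparison's median over all probe sets by more than 0.1.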

Other observations

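The split of Eng between the 2 ovary arrays of an age recurred in some other vessel genes at E14 and E16. Of the 44 genes of the endothelial list, 33 were higher in replicate 1 at E14 and 30 at E16. Kdr (299.9 and 367.3) and Procr (159.5 and 273.2) went the other way at E16. The split was not limited to vessel genes. Alas2 of red cells read 384.9 and 149.2, then 323.5 and 122.3, whereas Slc4a1 read 76.5 and 77.7, then 64.1 and 61.1. The vessel genes below are examples with a wide split. Plvap, the protein of fenestrated endothelium, read 208.9 and 13.5 in E14 ovary replicates 1 and 2 and 62.9 and 9.6 in E16 ovary, against 241.7 and 244.6 in E13 ovary. The same gene read 88.8 and 17.5 in E14 testis and 91.4 and 20.5 in cultured testis. Its replicates lay closer in the other testis groups, at 137.1 and 126.1 in E13 testis and 30.4 and 21.4 in E16 testis. Nrp1, a co-receptor of Kdr, read 197.6 and 95.7 in E14 ovary and 226.9 and 45.7 in E16 ovary. Ephb4, a receptor of venous endothelium, read 412 and 176.4, then 412.7 and 219.3. Cldn5, a tight junction protein, read 261.1 and 124.8, then 224.4 and 110.9.

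Of the 44 measured genes of the endothelial list, 22 were higher in replicate 1 than in replicate 2 of the ovary at all 3 ages, and 4 were lower at all 3. Over all 15866 probe sets these shares were 17.1% and 18.7%. The median difference of the list between replicates was log2 0.43 at E14 and 0.38 at E16 in ovary, and 0.12 or less in the other groups, while the median over all probe sets lay between -0.03 and 0.05. The first ovary array of every age belongs to chip period 3, and the second to period 3 at E13 and to period 1 at E14 and E16. These counts were made after the values were seen, and the part of the chip period in them was not tested.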
